A study of Mus musculus with 24 samples.

Results

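Growth hormone acts on the liver through its receptor and the transcription factor STAT5, and 10 genes of that pathway are described here in livers with and without the bile acid receptor FXR. They were chosen by symbol: the receptors Ghr and Prlr, the transducers Stat5a and Stat5b, the repressors Bcl6 and Cux2, the feedback inhibitors Socs2 and Cish, and the outputs Igf1 and Igfals. The choice was made with earlier results of these data known. Of these 10, 9 had a probe set among the 18820 named genes measured, and Prlr, the prolactin receptor, was not analysed here. Where a gene had several probe sets, the brightest one by its mean over the 24 arrays stood for it.

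The samples were whole livers of 24 male C57BL/6 mice on chow, 9 to 12 weeks old, with 1 array per mouse and 6 mice in each of 4 groups. FXR-/- mice (called FXRKO) received obeticholic acid (OCA, INT-747, called INT747) or vehicle, and wild-type mice (WT) received INT747 or vehicle. INT747 is a semi-synthetic agonist of FXR and was gavaged once a day at 10 mg/kg/day over 7 days, with 1% methyl cellulose as the vehicle. All 4 groups were gavaged, so no untouched group is among them, and the labels do not say whether FXRKO and WT mice were littermates.

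In the liver, growth hormone binds its receptor, the attached kinase JAK2 phosphorylates STAT5, and STAT5 enters the nucleus and switches on genes such as Igf1, Igfals, Socs2 and Cish. The pulses of growth hormone in male rodents and its steadier level in females set many of the sex differences in liver gene expression. In mouse liver Bcl6 and Cux2 are repressors at the end of this pathway: Bcl6 is male-biased and represses many female-biased genes, whereas Cux2 is female-biased and represses many male-biased genes.

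STAT5 dimers bind palindromes of the form TTCNNNGAA, and 3 members with a measured level carried this string near a start site. The windows run from 250 bases before to 50 bases after a RefSeq gene start (build GRCm38.p6), and the palindrome reads the same on both strands. It was present in 8.30% of 32851 such windows, and 2 or more copies were present in 0.457%. Counted by gene, 9.55% of 27025 genes had it in at least 1 of their windows. Windows were listed for 9 of the 10 members, and 4 of them had the string in at least 1 window: Cish, Bcl6, Igfals and Prlr. Ghr, Stat5a, Stat5b, Cux2 and Igf1 had none in the windows listed, and Socs2 is named only. The sequences of Cish, Bcl6 and Igfals are shown because they hold the string, which is in capitals, each written 5′ to 3′ on the strand of the gene. They are chr9:107296409-107296708 on the plus strand, chr16:23981234-23981533 on the minus strand and chr17:24877981-24878280 on the plus strand.
Cish: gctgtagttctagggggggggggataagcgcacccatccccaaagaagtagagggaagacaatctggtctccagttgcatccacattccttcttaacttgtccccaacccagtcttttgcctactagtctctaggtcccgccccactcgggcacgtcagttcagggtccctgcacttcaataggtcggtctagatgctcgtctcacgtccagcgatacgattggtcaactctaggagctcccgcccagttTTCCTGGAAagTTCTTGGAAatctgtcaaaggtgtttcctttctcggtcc
Bcl6: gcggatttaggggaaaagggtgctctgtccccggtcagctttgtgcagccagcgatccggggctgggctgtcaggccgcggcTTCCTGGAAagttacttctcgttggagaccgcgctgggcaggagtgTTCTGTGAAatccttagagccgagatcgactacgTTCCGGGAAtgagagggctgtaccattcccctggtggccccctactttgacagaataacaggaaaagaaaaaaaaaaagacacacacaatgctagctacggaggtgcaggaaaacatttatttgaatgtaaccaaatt
Igfals: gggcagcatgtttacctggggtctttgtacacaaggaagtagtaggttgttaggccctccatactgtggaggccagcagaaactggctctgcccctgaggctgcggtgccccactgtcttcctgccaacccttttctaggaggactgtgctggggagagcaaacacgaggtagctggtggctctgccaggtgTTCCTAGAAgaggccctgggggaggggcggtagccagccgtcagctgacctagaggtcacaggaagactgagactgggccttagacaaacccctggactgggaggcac

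Counted from 1 at the 5′ end of its window, Cish had TTCCTGGAA at 251 to 259 and TTCTTGGAA at 262 to 270. The Bcl6 window held 3 copies, with first bases at 83, 129 and 163, and 3 or more copies were present in 11 of all windows (0.0335%). A second Bcl6 window (chr16:23988803-23989102, minus strand) held 1 copy, and so did a further Igfals window (chr17:24877594-24877893, plus strand). A match of letters is a description of the sequence and does not show that STAT5 binds there.

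Signals below are the deposited log2 values, on which a difference of 1 is a doubling. The arrays of the series separated by genotype on the first principal component, which held 54.9% of the variance. The next component (7.88%) placed WT vehicle replicate 6 at −48.1, away from the other arrays at −6.71 to 9.91. Nr1h4, which encodes FXR, had lowest, median and highest levels of 9.80, 9.93 and 10.13 in FXRKO and 9.85, 10.13 and 10.30 in WT arrays, so its probe set does not check the genotype. Nr0b2, a gene that FXR induces, was at most 4.82 in FXRKO and at least 5.87 in WT arrays. The 8 hepatocyte markers were strongly expressed, with a lowest mean log2 level of 11.9.

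In FXRKO livers 6 of the 9 genes were lower than in WT livers and 1 was higher, with or without INT747. Ghr, Stat5b, Socs2, Cish, Igf1 and Igfals were lower, Cux2 was higher, and Stat5a and Bcl6 did not pass the test. Under vehicle 27.5% of all 18820 genes were called (15.4% higher and 12.1% lower), and under INT747 30.7% (17.4% higher and 13.3% lower). A gene was called at an adjusted p under 0.05 in limma, adjusted by Benjamini-Hochberg over all genes. Shares were larger among well expressed genes: of the 9410 genes with a mean level above the median gene, 4407 were called under vehicle and 4910 under INT747. Of the members, 8 were among these 9410 genes, and 6 of the 8 were called under vehicle. The median of the 9 log2 changes was −0.39 under vehicle and −0.43 under INT747, against −0.03 and −0.02 over all genes. Both comparisons have their own arrays: the vehicle groups and the INT747 groups share no mouse. Under INT747 the genotype coincided with a number in the array names. With that number as a block fewer of the 9 genes were called there, as given below.

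**Figure D1:**
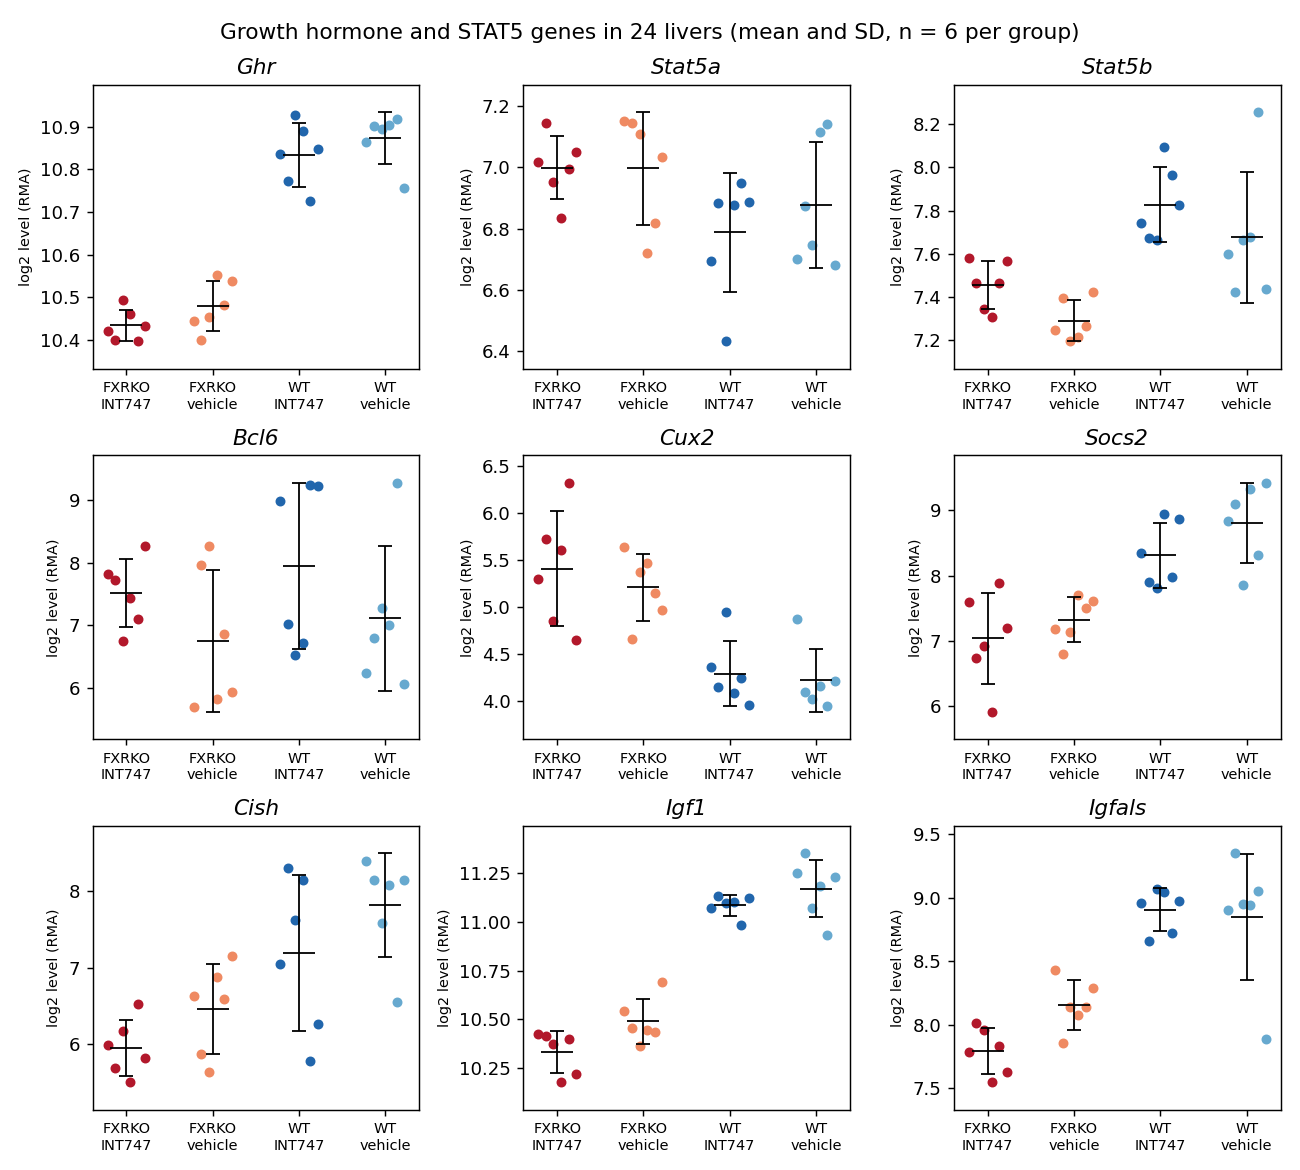
Log2 level of 9 growth hormone and STAT5 genes in 24 livers, by group; points are arrays, bars are the mean and SD of 6 arrays. Ghr and Igf1 have every FXRKO array below every WT array, Cux2 lies higher in FXRKO, and Bcl6 is spread over a range wider than the difference between the genotypes.

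The receptor gene Ghr was lower in FXRKO livers. Its lowest, median and highest levels were 10.40, 10.47 and 10.55 in FXRKO vehicle arrays, and 10.76, 10.90 and 10.92 in WT vehicle arrays. In FXRKO INT747 arrays they were 10.40, 10.43 and 10.49, and in WT INT747 arrays 10.73, 10.84 and 10.93. Every FXRKO array lay below every WT array, whichever gavage was given. The log2 change was −0.39 ± 0.05 (SE, n = 6 per group) under vehicle, 1.31-fold lower (limma, adjusted p = 5.01e-07). With INT747 in both genotypes it was −0.40 ± 0.05 (adjusted p = 3.71e-07).

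Of the transducers Stat5b, the main STAT5 form in liver, was lower and Stat5a did not pass. Stat5b read 7.20, 7.26 and 7.42 (lowest, median, highest) in FXRKO vehicle arrays and 7.42, 7.63 and 8.25 in WT vehicle arrays. Under INT747 it read 7.31, 7.47 and 7.58 in FXRKO and 7.66, 7.79 and 8.10 in WT arrays. The groups did not overlap in either comparison, but under vehicle the highest FXRKO array reached almost the lowest WT array. The log2 changes of Stat5b were −0.39 ± 0.11 under vehicle (1.31-fold lower, adjusted p = 0.00693) and −0.37 ± 0.11 under INT747 (1.29-fold lower, adjusted p = 0.00801). Stat5a averaged 7.00 ± 0.18 (SD) in FXRKO vehicle and 6.88 ± 0.21 in WT vehicle livers, and 7.00 ± 0.10 in FXRKO INT747 and 6.79 ± 0.19 in WT INT747 livers. Its groups overlapped throughout, with changes of 0.12 ± 0.10 (adjusted p = 0.41) and 0.21 ± 0.10 (adjusted p = 0.113). Stat5a and Stat5b are neighbouring, closely related genes, and signal shared between their probe sets cannot be told apart here.

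Cux2, the female-biased repressor, was the member with higher levels in FXRKO livers. Its levels were 4.66, 5.26 and 5.63 (lowest, median, highest) in FXRKO vehicle arrays and 3.94, 4.13 and 4.87 in WT vehicle arrays. Under INT747 they were 4.65, 5.45 and 6.32 in FXRKO and 3.96, 4.20 and 4.95 in WT arrays. In each comparison the groups overlapped through a WT array that stood above its group. The log2 change was 0.99 ± 0.23 under vehicle, 1.99-fold higher (adjusted p = 0.00149), and 1.11 ± 0.23 under INT747, 2.16-fold higher (adjusted p = 3.94e-04). WT levels of Cux2 were near the lower end of the scale and no detection calls were used, so the WT level may be background.

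Bcl6, the male-biased repressor, was spread widely within each group, and its groups overlapped. FXRKO vehicle arrays ran from 5.70 to 8.27 with a median of 6.39, and WT vehicle arrays from 6.06 to 9.27 with a median of 6.91. FXRKO INT747 arrays ran from 6.76 to 8.26 with a median of 7.58, and WT INT747 arrays from 6.53 to 9.23 with a median of 8.00. The log2 changes in FXRKO of −0.36 ± 0.56 under vehicle (adjusted p = 0.696) and −0.43 ± 0.56 under INT747 (adjusted p = 0.617) were smaller than their errors. The 95% intervals, −1.52 to 0.81 and −1.60 to 0.73, leave room for a level more than 2-fold lower.

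Both feedback inhibitors, which STAT5 induces and which damp signalling at the receptor, were lower in FXRKO livers. Socs2 ran from 6.80 to 7.70 with a median of 7.34 in FXRKO vehicle arrays and from 7.85 to 9.41 with a median of 8.96 in WT vehicle arrays. With INT747 it ran from 5.92 to 7.88 (median 7.06) in FXRKO and from 7.81 to 8.95 (median 8.16) in WT arrays. The vehicle groups did not overlap, and under INT747 the highest FXRKO array lay just above the lowest WT array. Socs2 changed by −1.48 ± 0.29 under vehicle (2.79-fold lower, adjusted p = 3.22e-04) and by −1.27 ± 0.29 under INT747 (2.41-fold lower, adjusted p = 0.00138). A dimmer Socs2 probe set was also lower, by −1.05 ± 0.21 (adjusted p = 6.93e-04 over all probe sets) and −0.70 ± 0.21 (adjusted p = 0.0169).

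Cish ran from 5.64 to 7.16 with a median of 6.61 in FXRKO vehicle arrays and from 6.55 to 8.40 with a median of 8.12 in WT vehicle arrays. Under INT747 it ran from 5.50 to 6.53 (median 5.90) in FXRKO and from 5.77 to 8.30 (median 7.33) in WT arrays. Most WT arrays were above all FXRKO arrays of the same gavage, and the overlap came from WT vehicle replicate 5 and WT INT747 replicates 5 and 6. The log2 change was −1.36 ± 0.37 under vehicle (2.57-fold lower, adjusted p = 0.00667) and −1.24 ± 0.37 under INT747 (2.37-fold lower, adjusted p = 0.0114).

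The outputs Igf1, the circulating growth factor, and Igfals, the subunit that holds it in a stable serum complex, were lower in FXRKO livers. Igf1 levels were 10.36, 10.45 and 10.69 (lowest, median, highest) in FXRKO vehicle arrays and 10.94, 11.21 and 11.35 in WT vehicle arrays. Under INT747 they were 10.18, 10.39 and 10.43 in FXRKO and 10.99, 11.10 and 11.13 in WT arrays. No FXRKO array reached a WT array. Igf1 changed by −0.68 ± 0.07 under vehicle (1.60-fold lower, adjusted p = 2.34e-08) and by −0.75 ± 0.07 under INT747 (1.68-fold lower, adjusted p = 3.97e-09).

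Igfals levels were 7.86, 8.14 and 8.43 in FXRKO vehicle arrays and 7.89, 8.95 and 9.35 in WT vehicle arrays. Under INT747 they were 7.55, 7.81 and 8.01 in FXRKO and 8.66, 8.97 and 9.07 in WT arrays. The vehicle groups overlapped only through WT vehicle replicate 6, the array that stood apart, and the INT747 groups did not overlap. The log2 change was −0.69 ± 0.16 under vehicle (1.62-fold lower, adjusted p = 0.00152), −0.88 without that array, and −1.11 ± 0.16 under INT747 (2.16-fold lower, adjusted p = 4.44e-06).

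Over the 9 genes, 4 had groups that did not overlap under vehicle (Ghr, Stat5b, Socs2 and Igf1) and 4 under INT747 (Ghr, Stat5b, Igf1 and Igfals). Of all genes 15.1% and 18.4% did not overlap in these comparisons. The array names carry a number that splits the groups, and the sources used here do not say what it means. All WT INT747 arrays had number 5 and all FXRKO INT747 arrays number 9, so under INT747 genotype and number cannot be told apart directly. Among vehicle arrays 4 FXRKO and 4 WT arrays shared number 7, and within them all 7 genes kept their direction and call, against 24.1% of all genes called. Their log2 changes there were −0.38 for Ghr, −0.32 for Stat5b, 0.95 for Cux2, −1.29 for Socs2, −1.49 for Cish, −0.73 for Igf1 and −0.88 for Igfals. With the number as a block, which links the INT747 groups through the vehicle arrays, 3 of the 9 genes were called under INT747: Ghr (−0.37), Igf1 (−0.90) and Igfals (−1.66), against 12.4% of all genes. The other 4 lost their calls: Socs2 (−0.69, adjusted p = 0.596) and Stat5b (−0.17, adjusted p = 0.732) with smaller changes, Cux2 (1.00, adjusted p = 0.266) with a similar one and Cish (−1.63, adjusted p = 0.25) with a larger one. Stat5b lost its call in that fit under vehicle too (−0.32, adjusted p = 0.0768).

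**Figure D2:**
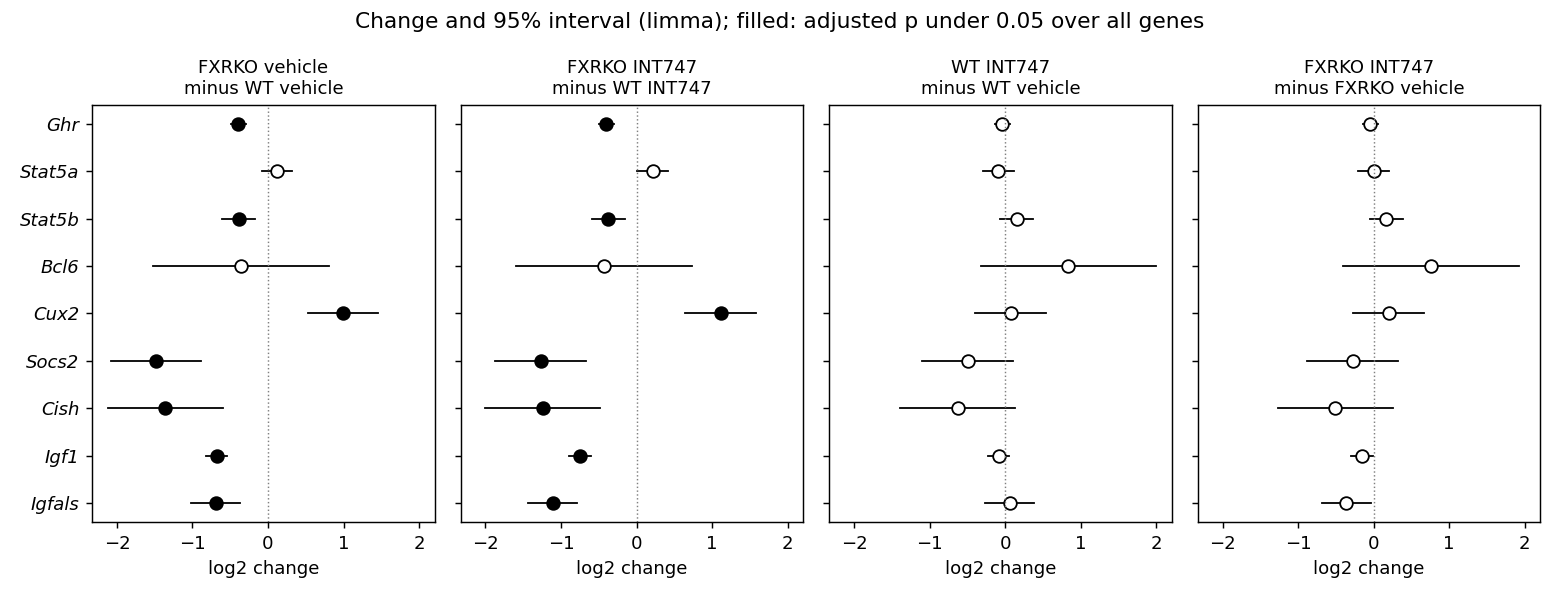
Log2 change with its 95% interval for 9 growth hormone and STAT5 genes in 4 comparisons; filled points were called over all genes. The FXRKO comparisons have 7 filled points each, from −1.48 for Socs2 to 0.99 for Cux2 under vehicle, and the INT747 comparisons have none.

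None of the 9 genes passed the test for INT747 against vehicle in either genotype. In WT livers 13 of 18820 genes were called (0.0691%), while 1782 had an unadjusted p under 0.05, and 0 of the 9 members were called or had an unadjusted p under 0.05 in limma. The members' changes there ran from −0.63 ± 0.37 for Cish to 0.84 ± 0.56 for Bcl6, with adjusted p of at least 0.638. In FXRKO livers 3 genes were called (0.0159%), while 968 had an unadjusted p under 0.05, and 0 members were called. Igf1 (−0.16 ± 0.07, adjusted p = 0.927) and Igfals (−0.36 ± 0.16, adjusted p = 0.926) were the 2 members with an unadjusted p under 0.05 there. Gavage and array number largely coincided within each genotype: the INT747 arrays were all of number 5 in WT and number 9 in FXRKO, whereas 4 of 6 vehicle arrays in each genotype were of number 7. A fit with the number as a block called 667 genes (3.54%) in WT livers, 77 when vehicle replicate 6 was also left out, and 0 of the 9 members in either. The block compares the WT INT747 arrays with vehicle replicates 5 and 6, the only WT vehicle arrays of number 5.

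Because a missed threshold does not show equal levels, the 95% intervals of the fit without the array number are given. For Ghr they were −0.14 to 0.06 in WT and −0.14 to 0.05 in FXRKO livers. For Igf1 they were −0.23 to 0.06 in WT and −0.30 to −0.01 in FXRKO livers, and for Stat5b −0.07 to 0.37 and −0.05 to 0.38. Those of Stat5a were −0.29 to 0.11 in WT and −0.20 to 0.21 in FXRKO livers. Socs2 (−1.09 to 0.11 in WT, −0.88 to 0.32 in FXRKO) and Cish (−1.39 to 0.13 in WT, −1.27 to 0.25 in FXRKO) were wider. The interval of Cux2 was −0.39 to 0.54 in WT and −0.27 to 0.66 in FXRKO livers, and that of Igfals −0.27 to 0.39 and −0.69 to −0.03. Bcl6 had the widest, −0.32 to 2.00 in WT and −0.40 to 1.92 in FXRKO livers. With the number as a block Igfals in WT livers (0.44) lay outside its interval. When vehicle replicate 6 was also left out, a setting chosen after seeing the data that leaves vehicle replicate 5 alone for comparison, 5 members lay outside theirs in WT livers: Stat5a (−0.36), Stat5b (−0.43), Bcl6 (−1.32), Cish (0.64) and Igf1 (0.15).

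The effect of INT747 was not shown to depend on the genotype for any member. No gene of the 18820 was called for this difference (0%), although 1140 had an unadjusted p under 0.05, and 0 of the 9 members did. The largest value was that of Igfals, −0.42 ± 0.22 (FXRKO minus WT effect, adjusted p = 0.836). Without WT vehicle replicate 6 it was −0.23.

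For Ghr, Socs2, Cish and Igf1 the group means stood in 1 order from low to high: FXRKO INT747, FXRKO vehicle, WT INT747 and WT vehicle. Igfals had the same FXRKO groups lowest, with WT vehicle below WT INT747. The order for Stat5b was FXRKO vehicle, FXRKO INT747, WT vehicle and WT INT747, and that for Cux2 WT vehicle, WT INT747, FXRKO vehicle and FXRKO INT747. Bcl6 had the order FXRKO vehicle, WT vehicle, FXRKO INT747 and WT INT747, and Stat5a WT INT747, WT vehicle, FXRKO vehicle and FXRKO INT747. Neighbours of the same genotype did not pass the test for any member. Neighbours that differ in both genotype and gavage, such as FXRKO vehicle and WT INT747, were not tested. Of the neighbouring vehicle groups those of Igfals passed and those of Bcl6 and Stat5a did not. The INT747 groups were neighbours for Bcl6 alone and did not pass for it.

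In FXRKO livers Cish was lower where Bcl6 was higher, a pair picked after the values were seen. Over the 12 FXRKO arrays Pearson's r was −0.86 (permutation p = 5.1e-04) and Spearman's rho −0.80 (permutation p = 0.0024). After adjustment over the 72 pairs of members in both genotypes these p-values were 0.0184 and 0.0932. Without the 2 arrays farthest from the Bcl6 median r was −0.85, after centring each group on its mean −0.83, and over the 8 FXRKO arrays of number 9 −0.74 (exact permutation p = 0.0326). Over those 8 arrays rho was −0.60 (exact permutation p = 0.132), and the 4 FXRKO arrays of number 7 were too few for a value.

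WT arrays fell into separate sets on Bcl6, so no coefficient is given over all of them. In 4 WT arrays, INT747 replicates 1, 5 and 6 and vehicle replicate 5, Bcl6 was between 8.98 and 9.27 and Cish between 5.77 and 7.05. In the other 8, of which 3 were INT747 and 5 vehicle arrays, Bcl6 was between 6.06 and 7.28 and Cish between 7.59 and 8.40. All 4 arrays of the set with high Bcl6 had array number 5, and the other set held the remaining 4 arrays of number 5 and all 4 of number 7. Each set held arrays of both gavages, and the Cish ranges of the sets did not overlap. Within the 8 arrays the relation could not be established (r = −0.37, exact permutation p = 0.368; rho = −0.29, exact permutation p = 0.501).

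**Figure D3:**
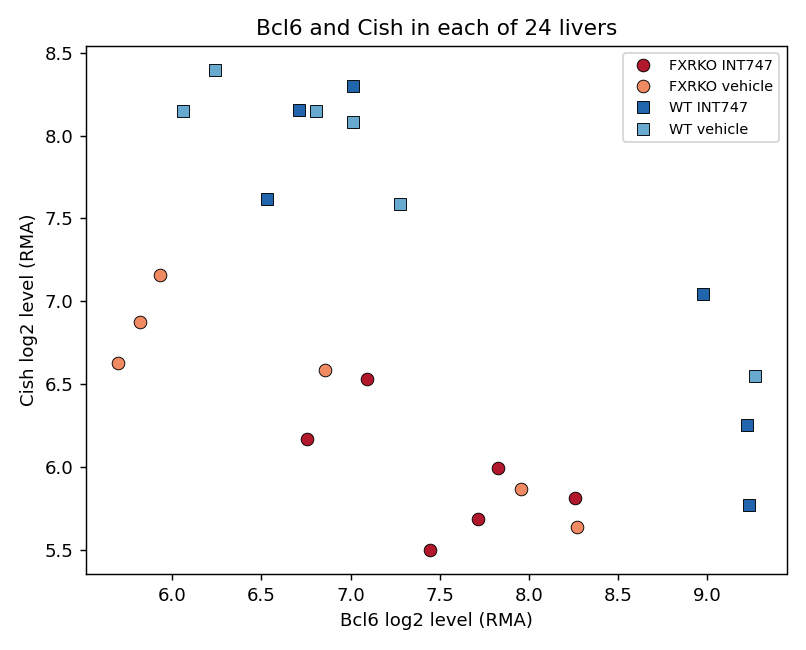
Log2 level of Cish (vertical axis) against that of Bcl6 (horizontal axis) in each of 24 livers; circles are FXRKO and squares WT arrays. WT arrays with Bcl6 at 8.98 or above have Cish at 7.05 or below, WT arrays with Bcl6 at 7.28 or below have Cish at 7.59 or above, and FXRKO arrays lie between 5.70 and 8.27 in Bcl6 and at 7.16 or below in Cish.

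Of the 72 pairs 57 did not split into separate sets, and 5 of these passed on r, while 0 of the 72 passed on rho (15 had an unadjusted p under 0.05). Beside Bcl6 and Cish these were Cish with Igf1 and Igf1 with Igfals in FXRKO livers, and Ghr with Igfals and Stat5b with Igf1 in WT livers. Cish and Igf1 had r = 0.76 (adjusted permutation p = 0.0356) and rho = 0.78, with r = 0.64 without the 2 farthest arrays. After centring each group on its mean their r was 0.66. Igf1 and Igfals had r = 0.81 (adjusted permutation p = 0.0279) and rho = 0.69, with r = 0.72 without the 2 farthest arrays and 0.67 after centring. Both pairs separated into sets within the arrays of number 9, so no value is given there. Ghr and Igfals had r = 0.73 (adjusted permutation p = 0.0419) and rho = 0.75 in WT livers, r = 0.71 without the 2 farthest arrays and 0.71 in the 8 arrays of number 5. Stat5b and Igf1 ran in opposite directions in WT livers, with r = −0.82 (adjusted permutation p = 0.0279) and rho = −0.74. Without the 2 farthest arrays r was −0.85, and in the 8 arrays of number 5 it was −0.82 (exact permutation p = 0.0135). After centring, r was 0.80 for Ghr and Igfals and −0.79 for Stat5b and Igf1. The permutations shuffled arrays across both gavages of a genotype, so their p-values do not measure covariation within a group alone.

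Genes known to differ between male and female liver changed widely in FXRKO livers. Their lists were chosen with earlier results of these data known, so the counts are a description and no independent test. Of 15 male-biased genes measured of 17 listed, 15 were lower under vehicle and 15 under INT747, with median log2 changes of −2.23 and −2.51. Elovl3, a fatty acid elongase, was at 3.95 or below in FXRKO vehicle arrays and at 9.62 or above in WT vehicle arrays (−7.48 ± 0.29, adjusted p = 6.01e-16). Hsd3b5, a steroid dehydrogenase, was at 3.77 or below in FXRKO and at 8.38 or above in WT vehicle arrays (−7.08 ± 0.30, adjusted p = 2.94e-15). The organic anion transporter Slco1a1 (−6.40 ± 0.25) and the cytochrome Cyp2d9 (−3.01 ± 0.14) were lower as well.

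Of 17 female-biased genes measured of 23 listed, 13 were higher and 1 lower under vehicle, and 14 higher and 1 lower under INT747, with medians of 1.97 and 1.71. The cytochrome Cyp2b9 was at 11.81 or above in FXRKO and at 5.29 or below in WT vehicle arrays (7.40 ± 0.38, adjusted p = 8.66e-14). Cyp2b13 (7.25 ± 0.18), Cyp2b10 (4.13 ± 0.39) and Cyp17a1, a steroid hydroxylase (2.59 ± 0.22), were higher too. The Cyp2b and Mup genes are families of close copies whose probe sets may share signal. Cyp39a1, an oxysterol hydroxylase, was the 1 listed gene that went the other way (−1.46 ± 0.15, adjusted p = 3.74e-08). Within number 7 under vehicle 15 male-biased genes were lower, and 15 female-biased genes were higher and 1 lower. With the number as a block under INT747 these counts were 10, 10 and 1.

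The IGF axis beside Igf1 and Igfals moved in both directions. Of 11 genes 4 were higher and 3 lower under vehicle (27.5% of all genes called), and 5 higher and 2 lower under INT747 (30.7%). Igf2r, the receptor that clears IGF2, was 0.83 ± 0.07 higher (adjusted p = 1.34e-09), and Igfbp3, the binding protein of the serum complex, 1.18 ± 0.12 higher (adjusted p = 5.19e-08). Igfbp7 was 0.65 ± 0.08 higher, and Igfbp2, another IGF binding protein, changed by −1.10 ± 0.12 (adjusted p = 7.27e-08). Igfbp1, which insulin represses, was called under INT747 alone (1.24 ± 0.41, adjusted p = 0.0217; 0.40 ± 0.41 and adjusted p = 0.517 under vehicle), and the difference between these was not called (no gene was).

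Among 7 measured genes of signal transduction beside the members, 2 were higher and 1 lower in each FXRKO comparison. The share of all genes called there was 27.5% under vehicle and 30.7% under INT747. The kinase Jak2 changed by 0.21 ± 0.07 under vehicle (adjusted p = 0.0192) and 0.27 ± 0.07 under INT747 (adjusted p = 0.00233), and the adaptor Grb2 by 0.25 ± 0.08 and 0.24 ± 0.08. The adaptor Shc1 was the gene lower under vehicle (−0.25 ± 0.06), and Sh2b1, an adaptor of JAK2, under INT747 (−0.28 ± 0.07). Irs2, a substrate of the insulin receptor, stood at −0.34 ± 0.19 under vehicle (adjusted p = 0.2). Of 6 other brakes 1 was higher and 1 lower: the phosphatase Ptpn6 (0.42 ± 0.09 and 0.69 ± 0.09) and Socs3, a suppressor of cytokine signalling (−0.97 ± 0.32 and −0.91 ± 0.32). Without WT vehicle replicate 6 the change of Socs3 under vehicle was −0.55. Socs1, of the same family, stood at −0.11 ± 0.08 (adjusted p = 0.307), and Ptpn2, another phosphatase, at −0.27 ± 0.16 (adjusted p = 0.237). The pituitary hormone genes Gh and Prl read at most 4.23 and 2.99 in any array, near the bottom of the scale, and were not called.

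Of 5 measured liver-enriched factors linked to growth hormone 3 were lower in each FXRKO comparison, against 27.5% and 30.7% of all genes called. Hnf4a changed by −0.52 ± 0.08 under vehicle (adjusted p = 2.95e-05) and −0.56 ± 0.08 under INT747, and Foxa2 by −0.59 ± 0.18 and −0.52 ± 0.18. Onecut1, a homeobox factor that growth hormone induces in liver, ran from 6.55 to 8.54 (median 7.57) in FXRKO vehicle and from 7.28 to 9.70 (median 9.09) in WT vehicle arrays. Its change was −1.37 ± 0.39 under vehicle (adjusted p = 0.0104) and −1.57 ± 0.39 under INT747 (adjusted p = 0.00304). Cebpb stood at −0.21 ± 0.13 (adjusted p = 0.225). Without WT vehicle replicate 6, 4 of the 5 factors were lower under vehicle and 5 under INT747. Within number 7 under vehicle 1 gene of transduction and 1 brake were higher, 0 of either were lower, and 2 factors were lower. With the number as a block under INT747 1 gene of transduction was lower, 2 brakes were higher and 1 factor was lower. For INT747 against vehicle 0 genes of these 8 lists were called in either genotype, the acute phase list below included. In the fit with the number as a block 3 of them were lower in WT livers under INT747: Igfbp1 (−1.73 ± 0.45, adjusted p = 0.0356), Igfbp7 (−0.39 ± 0.09, adjusted p = 0.0204) and Ptpn2 (−0.71 ± 0.19, adjusted p = 0.0375), named after their values were seen. Within number 5 alone, and with the block but without vehicle replicate 6, 0 were called.

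**Figure D4:**
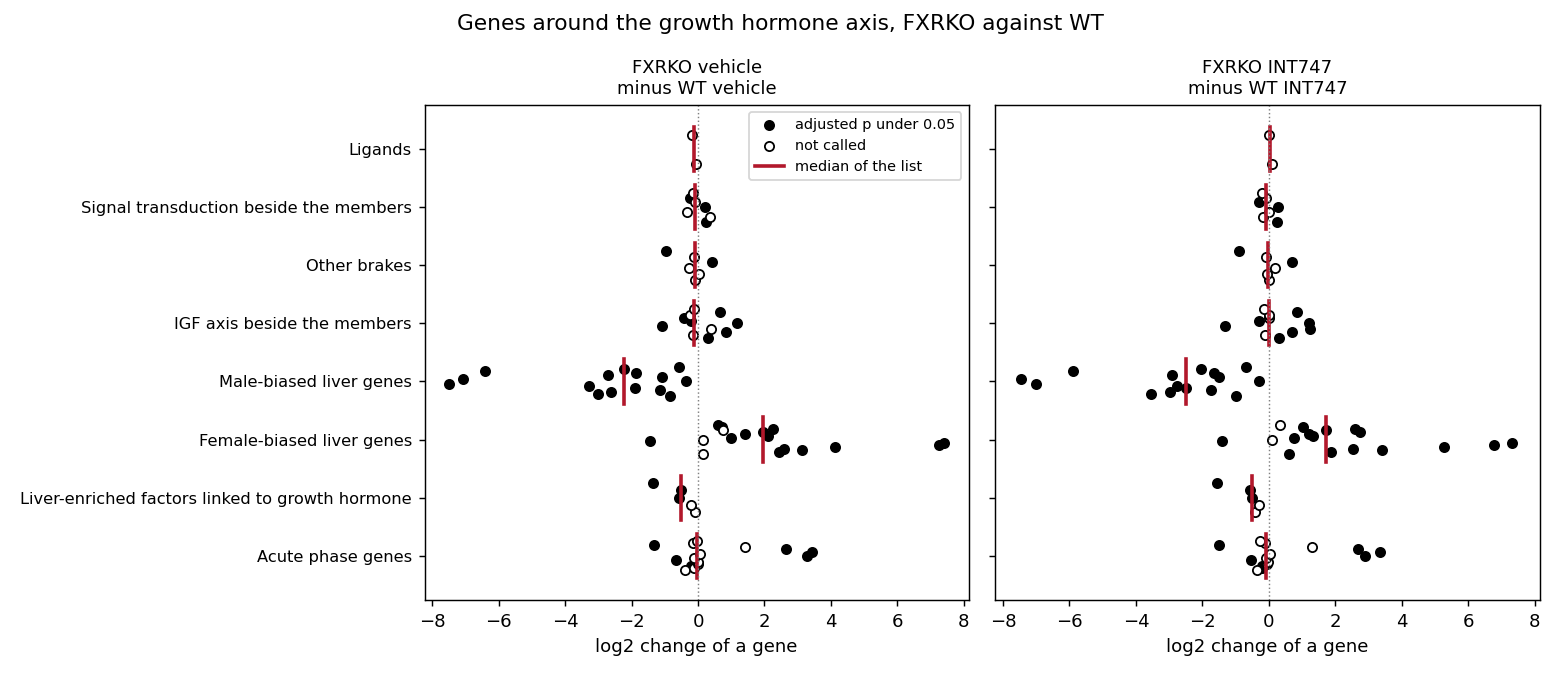
Log2 change of each gene of 8 lists around the growth hormone axis, FXRKO against WT, under vehicle (left) and INT747 (right); filled points were called over all genes and red bars are list medians. The male-biased list has medians of −2.23 and −2.51 and the female-biased list 1.97 and 1.71. The medians of the other lists lie nearer to 0, while single acute phase genes reach 3.43 and 3.33.

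Over all 24 arrays each called member had genes with a closely matching profile, given as Pearson's r and, in brackets, r after centring each group on its mean. Cish was most like Onecut1 (0.946, 0.887) and Bcas3 (0.891, 0.787). Igf1 was most like Serpina4-ps1 (0.975, 0.766) and Ces3b (0.965, 0.402). Ghr was most like Ces3b (0.977, 0.625) and Ndrg2 (0.974, 0.626), and Igfals like Dact1 (0.935, 0.724) and Hagh (0.933, 0.736). For Socs2 the nearest were Klf9 (0.893, 0.642) and Rcl1 (0.879, 0.595), for Stat5b Cpeb2 (0.861, 0.758) and Mier1 (0.856, 0.689), and for Cux2 Renbp (0.850, 0.480) and Ppp1r14b (0.848, 0.545). The arrays share the genotype split, which moves all of these genes, so the values over 24 arrays describe mainly that split. The partners were picked by their r over these same arrays, so the centred values are no separate check.

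Markers of other liver cells moved with the genotype, and in whole liver fewer cells of a type and less RNA per cell cannot be told apart. Of 8 hepatocyte markers 3 were lower in FXRKO under vehicle and 7 under INT747, with medians of −0.11 and −0.15. Their summed linear signal was 50829 to 55316 in FXRKO vehicle and 57220 to 62449 in WT vehicle arrays, and 49663 to 54595 in FXRKO INT747 and 58416 to 61751 in WT INT747 arrays. Of 10 Kupffer cell markers 7 and 8 were higher (summed signal 4903 to 5537 in FXRKO and 2430 to 4687 in WT vehicle arrays, 4721 to 8327 in FXRKO and 2055 to 5030 in WT INT747 arrays). All 9 stellate cell and fibroblast markers were higher in both comparisons (3957 to 4984 in FXRKO and 2198 to 3026 in WT vehicle arrays, 4489 to 5005 in FXRKO and 2158 to 2894 in WT INT747 arrays). With the number as a block under INT747 0 hepatocyte, 8 Kupffer cell and 6 stellate cell markers were called. Sinusoidal endothelial markers had 1 of 8 lower under vehicle and 3 of 8 higher under INT747, cholangiocyte markers 2 of 5 and 0 of 5 higher. Of the B cell markers Cd22 was higher in both, of the T and NK cell markers Cd4 was lower under vehicle, and of 5 neutrophil markers 0 were called. The part of cell composition in the members' changes was not tested.

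Acute phase genes were counted because inflammation is known to lower growth hormone signalling. Of 15 measured, 3 were higher under vehicle (Orm2 at 3.43 ± 0.44, Orm3 at 2.65 ± 0.42 and Lcn2 at 3.28 ± 0.72) and 3 were lower, among them Itih3 (−0.65 ± 0.14). Under INT747 3 were higher and 4 lower, against 27.5% (vehicle) and 30.7% (INT747) of all genes called. The list's medians were −0.03 and −0.09. Within number 7 under vehicle 5 were higher and 2 lower, and with the number as a block under INT747 3 were higher and 0 lower, with a median of 0.36. Without WT vehicle replicate 6, 4 were higher and 2 lower under vehicle, with a median of 0.07 and a highest change of 4.10 in place of 3.43, and 3 were higher and 5 lower under INT747. The summed linear signal was 51831 to 60096 in FXRKO and 46712 to 91332 in WT vehicle arrays, where the highest WT value was that of vehicle replicate 6 and the next 48778. Without that array the 7 members kept their calls under vehicle, with log2 changes of −0.42 for Ghr, −0.43 for Stat5b, 0.99 for Cux2, −1.36 for Socs2, −1.29 for Cish, −0.67 for Igf1 and −0.88 for Igfals. The part of these genes in the members' changes was not tested.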

How the data were processed

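Livers of 24 mice were measured on whole-transcript arrays, 1 array per mouse. Per the submitters' processing notes the authors normalized the arrays with RMA, and the deposited values were used unchanged. That the deposited values are log2 was taken from their range (0.873 to 13.6). Per the labels' protocols RNA came from an RNeasy micro kit and was biotin-labelled after the Ambion WT kit. Of 35556 probe sets 21218 had 1 symbol, 1881 had several, 12457 were not listed, and the first kind gave 18820 genes. The number of arrays limits the precision. Nothing says whether mice shared cages or days.

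A 4-group means model was fitted to all genes with limma 3.58.1 (R 4.3.3). Permutations numbered 100000, exact for fewer than 10 values. Promoter sequences and names came from RefSeq tables of GRCm38.p6. The members and the 16 gene lists were chosen with earlier results of these data known. Named genes were the members, Jak2, Socs1, Socs3, Gh, Prl, Onecut1 and Igfbp1 to Igfbp3, up to 4 genes per list by p, and 2 likeness partners per called member. The fit was checked on simulated data. Alternatives were centring, quantile normalization, filters, other variance models, weights, blocks, probe set choices and leaving out arrays. The replicate numbers of the titles were not taken as pairs in the main model. Same-numbered arrays deviated together at correlations of −0.08 to 0.17 over 36 pairs, 2 of them over 0.1. Such values cannot show that no mice were paired.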

Additional observations from a re-analysis of the deposited data

Results flagged for a closer look

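In 36 sets of 6 arrays (9 genes in 4 groups) the highest or lowest array was compared with its nearest neighbour by Dixon's ratio, at a critical value of 0.625, which chance passes in about 1 set in 20. All 4 values that stood apart came from WT vehicle arrays. For Ghr, replicate 6 read 10.76 and the others 10.86 to 10.92. Igfals in replicate 6 read 7.89 against 8.90 to 9.35, and this array also stood apart on the second principal component. Stat5b in replicate 5 read 8.25 against 7.42 to 7.68, the same mouse that had the highest WT vehicle Bcl6 level (9.27) and the lowest Cish level (6.55). Cux2 in replicate 1 read 4.87 against 3.94 to 4.22.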

How the results depend on the processing

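All 7 calls of each FXRKO comparison were kept when any 1 array was left out (7 to 7 of 9 called), and with the replicate block 7 of 9 were called in both. The INT747 comparisons had 0 members called under every alternative run. With a filter at the median gene Cux2 was not tested. With the number in the array names as a block 3 members were called for FXRKO against WT under INT747, and 2, Igf1 (−1.04) and Igfals (−1.08), when WT vehicle replicate 6 was also left out, a setting chosen after seeing the data. Without the 4 arrays whose names end in _2, 5 were called there, since Stat5b (−0.32) and Cish (−1.27) lost their calls. The causes were not tested. Centring each array on its median put the median change of all genes in FXRKO at −0.20 under vehicle and −0.21 under INT747 (−0.03 and −0.02 otherwise), and all 7 calls were kept in both. The calls over all genes were then 1776 higher and 8354 lower under vehicle (2903 and 2271 otherwise) and 1878 and 9221 under INT747 (3280 and 2500 otherwise, and 2805 and 3214 with quantile normalization). Over all genes the INT747 calls in WT livers numbered 667 with the number block and 2 to 77 in the other alternatives (13 otherwise), those in FXRKO livers 0 to 11 (3 otherwise) and those for the difference 0 to 34 (0 otherwise). Under INT747 FXRKO against WT had 2334 calls with the number block and 1834 without replicate 6 as well (5780 otherwise).

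The sign turned for values that had not passed, and in 1 added setting for Stat5b, which had. For FXRKO against WT under vehicle Stat5a was −0.047 after centring, and Bcl6 ranged from −0.66 to 0.076 over the fits without 1 array, 0.076 being that without WT vehicle replicate 5. For FXRKO against WT under INT747 Bcl6 was 0.29 with the number block and 1.89 without replicate 6 as well, where Stat5b, called otherwise, was 0.24. For INT747 in WT livers Igfals was −0.080 with array weights and −0.13 to 0.16 without 1 array, and Cux2 −0.057 to 0.20 without 1 array. The number block and the fit within 1 number gave −0.018 for Stat5b and 9.34e-04 for Igf1. The block without replicate 6, which compares INT747 arrays with vehicle replicate 5 alone, gave −0.43 for Stat5b, −1.32 for Bcl6, 7.05e-04 for Socs2, 0.64 for Cish, 0.15 for Igf1 and −0.14 for Igfals. For INT747 in FXRKO livers Stat5a was −0.0085 after centring, −0.0067 after quantile normalization, −0.15 with the number block, within number 9 and without replicate 6, and −0.053 to 0.035 without 1 array. Ghr was 0.012 and Socs2 0.053 in those number fits.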
